A study of Homo sapiens with 14 samples.

Results

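The zinc finger (ZNF) genes of human chromosome 19 were followed through knockdown of ZBP1 in the human myeloma lines MM1.S and H929. ZBP1 is a protein that senses left-handed (Z-form) nucleic acids and can trigger inflammatory cell death. Members were the genes on chromosome 19 whose symbol is ZNF, a number and at most 1 letter other than P, with at least 10 reads (normalized reads in H929) in at least 2 libraries of a line. Of the 248 such genes listed, 235 were members: 202 passed in MM1.S, 230 in H929 and 197 in both. They are 235 of the 20378 genes of the whole data set that passed the same limit. The 13 genes that did not pass in either line were ZNF177, ZNF20, ZNF223, ZNF285B, ZNF415, ZNF625, ZNF677, ZNF728, ZNF729, ZNF781, ZNF807, ZNF888 and ZNF99. A few members passed through a single group. In MM1.S, ZNF730, ZNF626 and ZNF90 passed only through the scramble libraries and ZNF470 only through the shRNA2 libraries. In H929, ZNF536 passed only through shRNA1 and ZNF578 only through the scramble for shRNA1.

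Cells of each line were transduced with lentivirus carrying 1 of 2 hairpins against ZBP1 (shRNA1, shRNA2) or a scramble control, and poly(A) RNA was sequenced. There were 2 libraries in each of 7 groups: MM1.S with shRNA1, shRNA2 and 1 scramble that served both hairpins, and H929 with shRNA1, its scramble, shRNA2 and its own scramble. The labels name no clone, culture or time after transduction. Whether both libraries of a group are separate cultures is not stated, so the p-values reflect a spread within pairs of libraries that may be technical repeats. That spread was estimated over all groups of a line together, with the help of other genes, and not for each group apart.

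Most of these genes encode C2H2 zinc finger proteins whose fingers bind DNA and whose KRAB box recruits the corepressor TRIM28, which in turn brings the histone methyltransferase SETDB1 and HP1 proteins. Many silence transposable elements, and many stand in tandem clusters on chromosome 19 that grew by gene duplication. Their mRNAs are known for short half-lives, so their levels can follow changes in transcription or decay quickly. RNA levels were measured here, not half-lives, and in bulk RNA fewer cells carrying a transcript and less of it per cell cannot be told apart.

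The libraries held 20.46 to 28.42 M reads in genes in MM1.S and 15.93 to 22.25 M in H929. Mitochondrial genes took 11.6% to 12.1% of reads in MM1.S knockdown libraries and 9.87% to 10.2% in MM1.S scramble libraries. In H929 they took 5.98% to 6.34% with shRNA1 and 6.63% to 7.22% with its scramble, and 8.72% to 8.80% with shRNA2 and 6.84% to 7.12% with its scramble; their part in the results was not tested. ZBP1 itself was lower in every comparison, with log2 fold changes (± standard error) of -2.55 ± 0.15 with shRNA1 and -3.11 ± 0.16 with shRNA2 in MM1.S, and of -1.31 ± 0.09 and -1.62 ± 0.09 in H929. Plasma cell genes such as SDC1 (689 to 1085 CPM, reads scaled to a common library size, in MM1.S and 589 to 953 in H929) were present in all libraries, and CD27, also on that list, stayed at or below 1.18 CPM. Of the markers of T cells, myeloid cells, epithelium and fibroblasts, CD3D, CD2, LYZ, CD14 and COL1A2 were at or below 0.976 CPM in every library, while CD3E reached 31.2, KRT18 21.9 and COL1A1 34.8 CPM in H929.

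By GENCODE release 29, 234 of the 235 members are protein coding and ZNF788 is a transcribed pseudogene. Exons of 131 members overlap another gene, and those of 76 overlap a gene on the opposite strand. Among the 76 are ZNF93, ZNF100, ZNF224, ZNF225, ZNF627 and ZNF788. No label says that the libraries keep the strand, so some reads of such members may belong to the other gene. A KRAB box pattern was found in the translated sequence of 197 members and was not found in 37, and the proteins held a median of 12 C2H2 fingers (0 to 36). With gaps of at least 1 Mb as borders, the genes fell into 16 groups along the chromosome. The group with the most members on the short arm, chr19:19668796-24129961 in bands p13.11 to p12, is called the 19p12 cluster below. It held 33 members of 36 listed genes, and 31 of the 33 had the KRAB pattern. Larger groups, with 36 and 59 members, lie on the long arm. The plan named no single group, and the 19p12 cluster was set apart with results of these data known.

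The start regions of the cluster genes share sequence. RefSeq promoter windows (GRCh38.p14, 250 bases before to 50 after the start) matched 209 of the 235 members and 28 of the 33 in the cluster. The 5 motifs fixed for the comparison were searched on both strands. CCAAT was present in 28 of 28 cluster windows, against 45.9% of the 181 windows of members outside and 35.7% of all 27305 RefSeq windows. CCGGAA, the core of ETS factor sites, was present in 78.6% of cluster windows, 51.9% of member windows outside and 17.6% of all windows. GGGCGG, the GC box, was present in 21 of 28 cluster windows, 66.3% of member windows outside and 44.6% of all windows. TATAAA was present in 3 of 28, 0.552% and 3264 of 27305, and TGACGTCA in 0 of 28, 3.87% and 1.98%. No motif contains another, and a match of letters is not a binding site. Pairs of cluster windows shared a median of 21.8% of their 8-base words, and pairs of windows of members outside 1.03%, so the 28 windows are not separate observations.

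Below are the 250 bases before the start of 3 cluster genes, ZNF85 and ZNF724, which were lower with both hairpins in both lines, and ZNF91, which was higher with shRNA2 in both, followed by ZNF627 at 19p13.2, which was higher in all of these comparisons. The windows are shown to set genes of one cluster that were called in opposite directions beside a gene outside it. In H929, ZNF724 reached the limit only in scramble libraries, so it had to be lower there. The windows end at the RefSeq start, which for ZNF85, ZNF91 and ZNF627 lies inside the gene's GENCODE span. Capitals mark the CCAAT box, the ETS core and the GC box as spelled above, on either strand. The windows are chr19:20923001-20923250, plus strand for ZNF85, chr19:23250395-23250644, minus strand for ZNF724, chr19:23395472-23395721, minus strand for ZNF91 and chr19:11597233-11597482, plus strand for ZNF627.
ZNF85: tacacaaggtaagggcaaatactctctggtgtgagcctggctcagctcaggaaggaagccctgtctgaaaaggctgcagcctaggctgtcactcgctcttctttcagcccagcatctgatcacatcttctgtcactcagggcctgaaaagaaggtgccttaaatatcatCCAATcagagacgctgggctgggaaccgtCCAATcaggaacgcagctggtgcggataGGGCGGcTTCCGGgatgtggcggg
ZNF724: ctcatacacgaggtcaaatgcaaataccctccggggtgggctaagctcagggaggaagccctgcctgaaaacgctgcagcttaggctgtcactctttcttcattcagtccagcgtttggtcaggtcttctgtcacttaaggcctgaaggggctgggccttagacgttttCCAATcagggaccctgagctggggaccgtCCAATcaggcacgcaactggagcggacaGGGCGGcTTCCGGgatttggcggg
ZNF91: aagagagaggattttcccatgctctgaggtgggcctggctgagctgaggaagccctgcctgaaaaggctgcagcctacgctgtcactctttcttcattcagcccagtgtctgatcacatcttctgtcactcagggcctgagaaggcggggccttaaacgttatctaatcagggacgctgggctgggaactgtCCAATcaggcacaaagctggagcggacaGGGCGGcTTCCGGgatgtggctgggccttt
ZNF627: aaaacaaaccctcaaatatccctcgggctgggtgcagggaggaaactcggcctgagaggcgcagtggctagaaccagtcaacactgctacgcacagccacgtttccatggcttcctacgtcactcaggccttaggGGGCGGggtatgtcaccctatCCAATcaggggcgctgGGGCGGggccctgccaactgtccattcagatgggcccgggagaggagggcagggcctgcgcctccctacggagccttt

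Levels of the members were low. The median of their mean levels was 6.15 CPM in MM1.S and 5.57 CPM in H929, and 52 and 25 of the 235 averaged below 1 CPM. Per kb of exon, ZNF146, a protein made almost wholly of fingers and without a KRAB box, was highest in MM1.S with 22.2 CPM per kb, followed by ZNF296 with 22.1. ZNF296 was highest in H929 with 26.9 CPM per kb, followed by ZNF121 with 26.4. All members together summed to 2417 and 2199 CPM in the MM1.S shRNA1 libraries, 2880 and 2587 with shRNA2 and 2349 and 2190 with scramble. In H929 the sums were 2665 and 2876 with shRNA1 against 2371 and 2308 with its scramble, and 2445 and 2516 with shRNA2 against 2143 and 2008 with its scramble. Both H929 hairpins thus stood above their scramble in this sum, whereas the MM1.S shRNA1 and scramble libraries overlapped. The rise was not particular to chromosome 19. ZNF genes of the same naming pattern on other chromosomes summed to 7309 and 7175 CPM with shRNA1 in H929 against 5861 and 5812 with its scramble. With shRNA2 they summed to 6087 and 6216 against 5482 and 5391.5. In MM1.S their sums were 7218 and 6724.5 with shRNA1, 7312.5 and 6823 with shRNA2 and 6278 and 5971.5 with scramble.

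With shRNA1, most members of the 19p12 cluster tested were lower than scramble in both lines. In MM1.S, 19 of the 29 cluster members tested were lower and 0 higher (edgeR quasi-likelihood test, adjusted p under 0.05 over all genes), with a median log2 fold change of -1.20. In H929, 19 of 31 were lower and 1, ZNF253, higher (limma), with a median of -0.88. Outside the cluster, 19 of 171 members were lower and 12 higher in MM1.S (median -0.06), and 31 of 199 lower and 35 higher in H929 (median -0.04). Over all members this gave 38 lower and 12 higher of 200 in MM1.S, where 19.7% and 17.8% of all genes tested were called lower and higher. It gave 50 lower and 36 higher of 230 in H929, where 27.7% and 25.7% of all genes were. The members as a whole were thus called lower about as often as all genes in MM1.S, and at 21.7% below the share of all genes in H929. In the cluster the share was 65.5% in MM1.S and 61.3% in H929. Since the cluster was set apart with results of these data known, these shares describe it and are not a test.

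The cluster counts with shRNA1 held when single libraries were left out, at 14 to 18 in MM1.S and 15 to 19 in H929. The counts over all MM1.S members did not: without shRNA1 replicate 1 there were 21 lower and 4 higher, without shRNA1 replicate 2 there were 18 lower, and without scramble replicate 2 there were 4 higher. Replicate numbers pair the MM1.S libraries, and with the number as a block 64 of 200 members were lower and 34 higher, where 30.9% and 28.4% of all genes were.

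**Figure D1:**
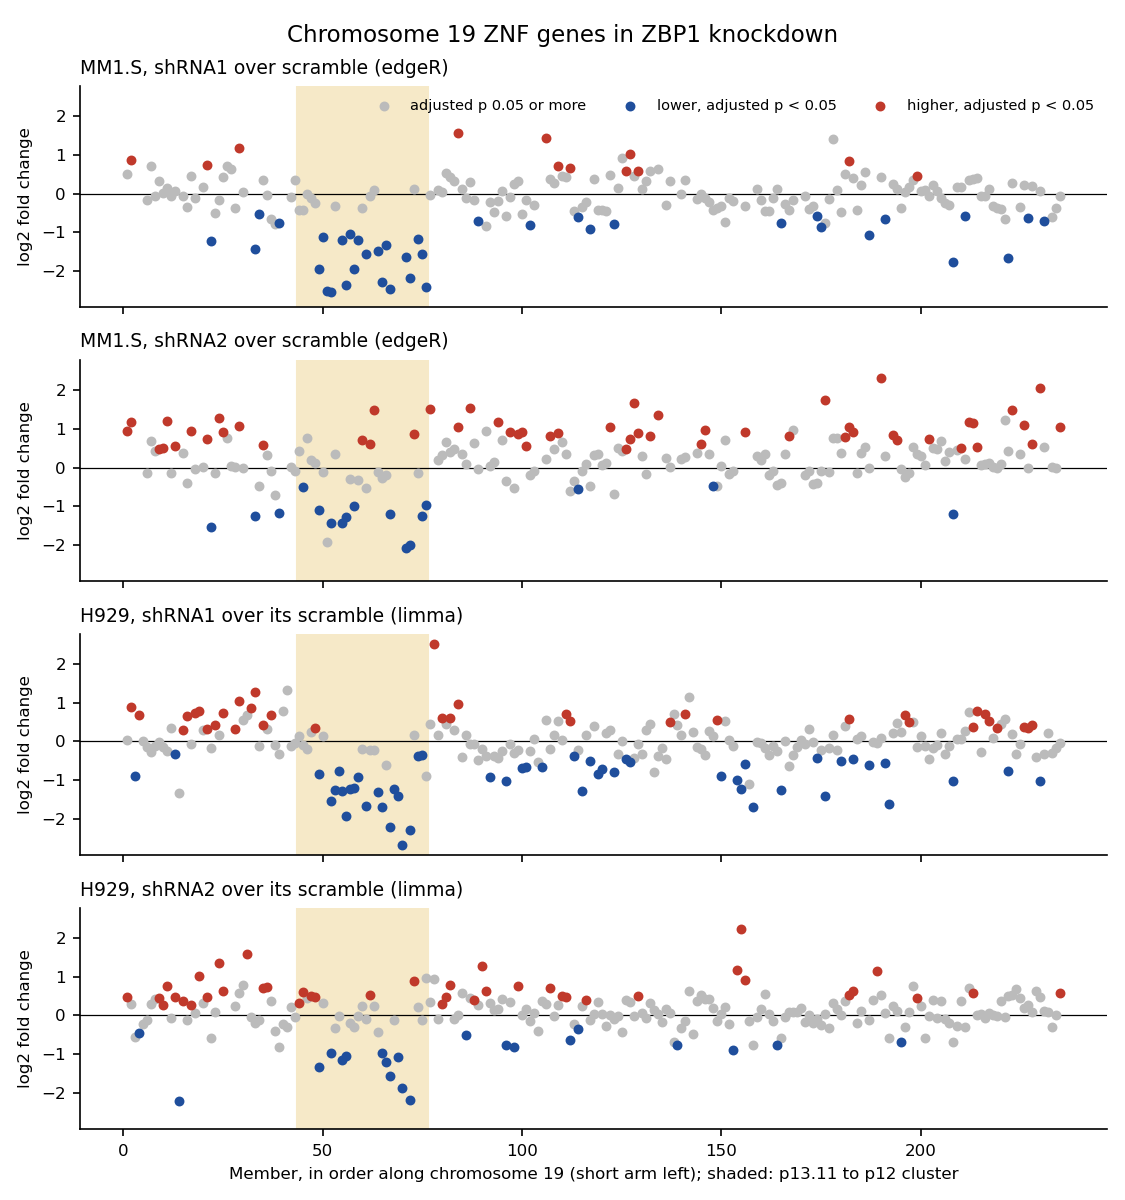
Log2 fold change over scramble of each member tested (y axis) in order along chromosome 19 (x axis), for each hairpin and line. Blue points are lower and red points higher at an adjusted p under 0.05, and the shaded stretch is the 19p12 cluster, where 19 members were lower with shRNA1 in each line.

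The boundary of the lower stretch lay inside the cluster. The 4 members in band p13.11 (ZNF101, ZNF14, ZNF506, ZNF253) had shRNA1 log2 fold changes of -0.43 to 0.00 in MM1.S and -0.19 to 0.36 in H929, and none was lower. All of the lower calls were in band p12, with 19 of 25 in MM1.S and 19 of 27 in H929. ZNF90 and ZNF730, which entered the MM1.S test through the scramble libraries alone, had to be lower there. Without them 17 of 27 were lower. In H929, ZNF724 likewise reached the limit only in scramble libraries and is among the 19 lower with shRNA1 and the 10 lower with shRNA2. Members that passed only through both scramble groups of H929 were not counted apart. Many of the cluster members are scarce: among those averaging at least 5 CPM, 6 of 13 were lower in MM1.S and 7 of 13 in H929. Among those with no exon overlapping another gene the counts were 11 of 15 and 11 of 16. Among those sharing at most 20% of their 31-base words with other genes they were 15 of 23 and 12 of 23. The 31-base words bear on reads that could be split between near-identical copies, and the overlaps on reads from a neighbour, since no label says that the libraries keep the strand.

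Other genes between the cluster's ends were counted in the same way. These were all annotated genes there except the listed ZNF genes. They can thus include ZNF pseudogenes and transcripts that overlap members, and no limit on overlap or shared sequence was set. Of the 23 with enough reads in MM1.S, 9 were lower and 1 higher with shRNA1 (median -0.38). Of 22 in H929, 8 were lower and 3 higher (median -0.31). The shares lower were 39.1% in MM1.S and 36.4% in H929, where 19.7% and 27.7% of all genes were. The shares higher, 4.35% and 13.6%, were below the 17.8% and 25.7% of all genes. With shRNA2, 7 were lower and 4 higher in MM1.S, at 30.4% and 17.4%, where 21.7% and 14.9% of all genes were. In H929, shRNA2 called 3 lower and 4 higher, at 13.6% and 18.2%. The share lower was below that of all genes, and the share higher near it. The share of member reads that fell in the cluster was 6.55% and 6.14% in MM1.S shRNA1 libraries, 9.19% and 7.95% with shRNA2 and 11.3% and 9.77% with scramble. In H929 it was 6.37% and 6.60% with shRNA1 against 9.24% and 9.03% with its scramble, and 11.1% and 11.4% with shRNA2 against 11.8% and 11.1% with its scramble. The shRNA1 libraries had the lowest shares in both lines.

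**Figure D2:**
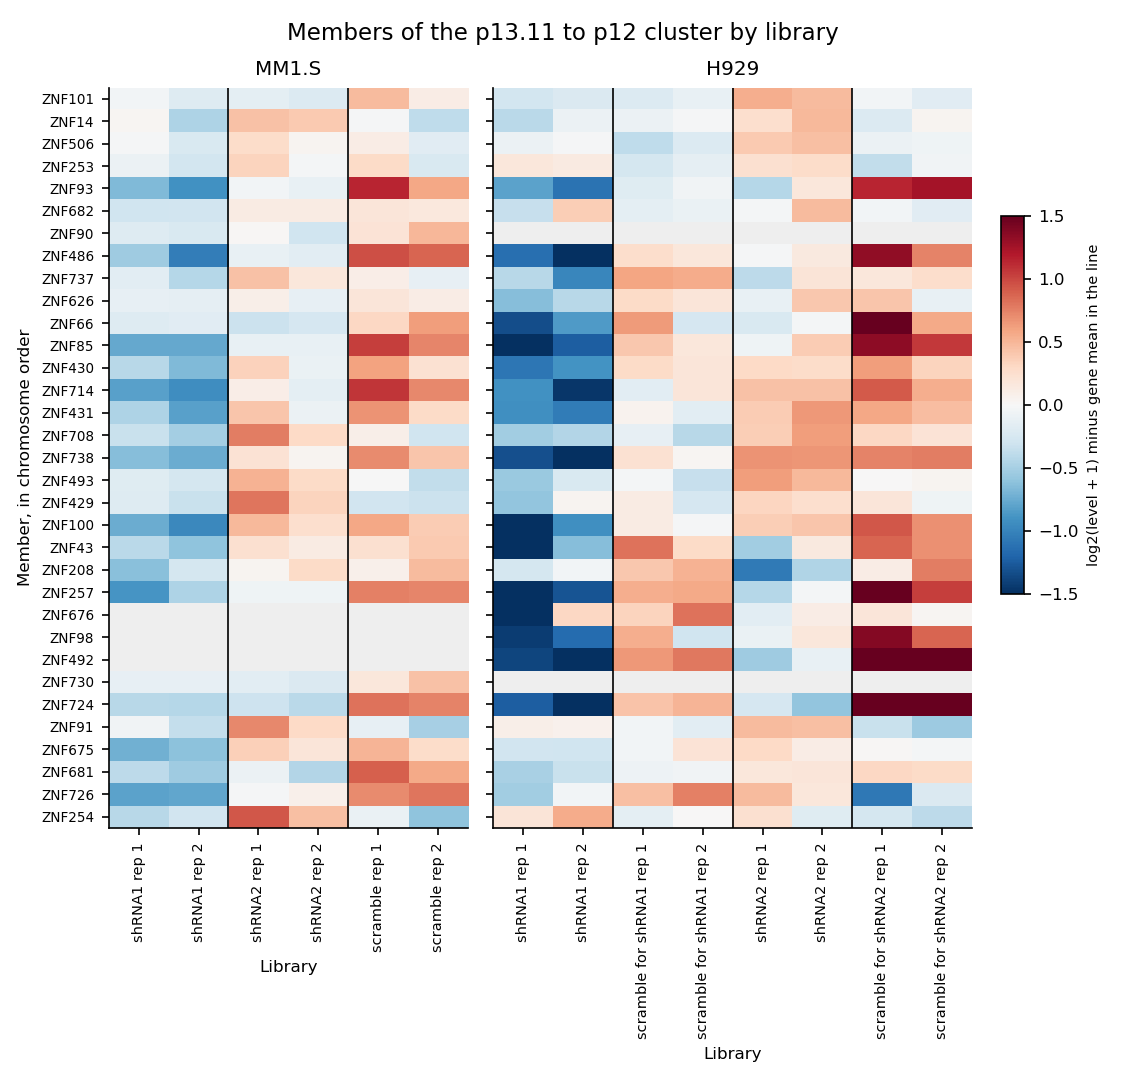
Level of each 19p12 cluster member (rows, in chromosome order) in each library (columns), as log2 of the level plus 1 minus the gene's mean in the line (CPM in MM1.S, normalized reads in H929); blue is below the mean, red above, grey a gene below the limit in that line. Both shRNA1 libraries lie below both scramble libraries for 22 of 29 members (75.9%) in MM1.S and 23 of 31 (74.2%) in H929, where 33.8% and 38.4% of all genes did. The 29 include ZNF90 and ZNF730, and the 31 include ZNF724. These passed the limit only through scramble libraries, so the limit favoured this position for them.

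ZNF100 shows the shRNA1 pattern (ENSG00000197020, chr19:21722766-21767628, minus strand). It had 5.84 and 4.89 CPM in MM1.S shRNA1 libraries, 15.1 and 12.7 with shRNA2 and 16.1 and 13.97 with scramble. Both shRNA1 libraries lay below all others. The log2 fold change was -1.48 ± 0.18 with shRNA1 (edgeR adjusted p = 0.00069) and -0.11 ± 0.17 with shRNA2 (edgeR adjusted p = 0.65). In H929 it had 50.4 and 81.02 normalized reads with shRNA1 against 167 and 153 with its scramble, a change of -1.31 ± 0.19 (limma adjusted p = 2.8e-05). With shRNA2 it had 198 and 206 against 294 and 249 with its scramble, a change of -0.42 ± 0.19 (limma adjusted p = 0.092). ZNF714 (ENSG00000160352, chr19:21082159-21125270, plus strand), which lacks a KRAB pattern, was lower with shRNA1, at -1.95 ± 0.20 in MM1.S (edgeR adjusted p = 0.00027) and -1.20 ± 0.20 in H929 (limma adjusted p = 0.00011). It was also lower with shRNA2 in MM1.S, at -0.98 ± 0.19 (edgeR adjusted p = 0.0053), while the H929 value was -0.29 ± 0.20 (limma adjusted p = 0.26).

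With shRNA2, cluster members were called in both directions. In MM1.S, 11 of 29 were lower and 5 higher (median -0.31): ZNF91, ZNF254, ZNF429, ZNF493 and ZNF708 were the higher ones. Without ZNF90 and ZNF730, which entered through the scramble libraries alone, 10 of 27 were lower. In H929, 10 of 31 were lower and 5 higher (median -0.12): ZNF91, ZNF101, ZNF253, ZNF493 and ZNF506. Of these genes ZNF91 was listed for its known role and ZNF101 and ZNF708 were picked by the size of their own differences between lines (ZNF101) and between hairpins (ZNF708); the rest were named after their values were seen. Outside the cluster most members were not called with shRNA2, 116 of 171 in MM1.S and 152 of 199 in H929. Those called were 49 higher and 6 lower in MM1.S (median of the 171, 0.34) and 36 higher and 11 lower in H929 (median of the 199, 0.10). Over all members, 54 of 200 were higher and 17 lower in MM1.S, where 14.9% of all genes were higher and 21.7% lower. In H929, 41 of 230 were higher and 21 lower, where 18.0% of all genes were higher and 25% lower. In MM1.S 27.0% of members were higher, above the share of all genes, and in H929 17.8%, near it. The shares lower, 8.50% and 9.13%, were below those of all genes in both lines.

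Leaving out single libraries moved the shRNA2 counts. In MM1.S there were 18 members higher without shRNA2 replicate 1, 31 without shRNA2 replicate 2 and 33 without scramble replicate 2. Without either shRNA2 library 9 members were lower, and 5 of the cluster. With the replicate number as a block, 87 of 200 members were higher and 34 lower, where 26.8% and 32.0% of all genes were. In H929 there were 24 higher without shRNA2 replicate 1, 19 without shRNA2 replicate 2 and 24 without replicate 2 of its scramble, while 11 and 13 were lower without shRNA2 replicates 1 and 2. Of the cluster, 4 were lower without shRNA2 replicate 1 and 5 without replicate 1 of its scramble.

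**Figure D3:**
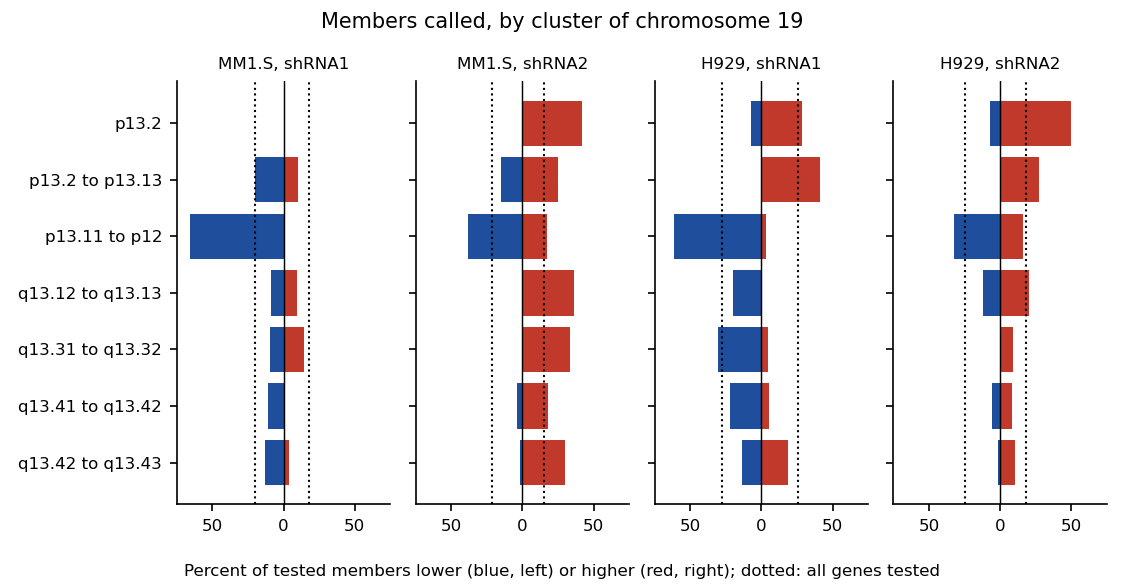
Percent of tested members called lower (blue, left of 0) or higher (red, right of 0) in the 7 groups of neighbouring genes with at least 12 members tested, for each hairpin and line; dotted lines are the percents over all genes tested. The p13.11 to p12 bar for lower genes reaches 65.5% and 61.3% with shRNA1, past the dotted lines at 19.7% and 27.7%.

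The counts of the other clusters with at least 12 members tested were read against the shares of all genes given above. At 19p13.2 to p13.13 (chr19:11483427-12640098, 24 members), 9 of 22 were higher with shRNA1 in H929 (40.9%, where 25.7% of all genes were) and 6 with shRNA2 (27.3%, where 18.0% were), and 0 were lower with either. Of 20 tested in MM1.S, shRNA1 called 2 higher and 4 lower, and shRNA2 called 5 higher and 3 lower. At p13.2 (14 members), 7 of 14 were higher with shRNA2 in H929 and 5 of 12 (41.7%) in MM1.S, where 14.9% of all genes were. With shRNA1 that cluster had 4 higher and 1 lower in H929 and 0 of 12 called in MM1.S. At q13.12 to q13.13 (25 members), 8 of 22 (36.4%) were higher and 0 lower with shRNA2 in MM1.S. With shRNA1 in H929, 0 of 25 were higher there, and the 5 lower were below the 27.7% of all genes. In the other comparisons it had 2 higher and 2 lower with shRNA1 in MM1.S and 5 higher and 3 lower with shRNA2 in H929.

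At q13.31 to q13.32 (23 members), shRNA2 called 7 of 21 higher and 0 lower in MM1.S (33.3%), and 2 of 23 higher in H929, below the 18.0% of all genes. In H929 shRNA1 called 7 of 23 lower (30.4%, near the 27.7% of all genes) and 1 higher, and in MM1.S it called 3 of 21 higher and 2 lower. At q13.41 to q13.42 (36 members), shRNA1 called 0 higher and 3 lower of 28 in MM1.S and 2 higher and 8 lower of 36 in H929, and shRNA2 called 5 higher and 1 lower in MM1.S and 3 higher and 2 lower in H929. The 5 are 17.9%, near the 14.9% of all genes, and the other shares were below those of all genes. At q13.42 to q13.43, the largest with 59 members, 16 of 53 (30.2%) were higher and 1 lower with shRNA2 in MM1.S, against 6 higher (10.3%) and 1 lower of 58 in H929. With shRNA1 the same cluster had 2 higher and 7 lower in MM1.S and 11 higher and 8 lower in H929, all below the shares of all genes.

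The hairpins were then compared with each other. In MM1.S, 66 of 200 members were higher and 4 lower in shRNA2 than in shRNA1 libraries, where 16.4% and 20.4% of all genes were higher and lower, and 19 of 29 cluster members were higher and 0 lower (median 0.87). This comparison uses the same shRNA1 and shRNA2 libraries as the counts above and is not separate from them. In H929, where each hairpin has its own scramble, the difference between the hairpin effects was positive (higher with shRNA2) for 39 of 230 members and negative for 17, against 20% and 21.9% of all genes. In the cluster it was positive for 10 and negative for 0 of 31 (median 0.65). All cluster calls in this contrast were thus in 1 direction in both lines. The MM1.S count over all members was 21 without shRNA2 replicate 1, 31 to 38 without any other knockdown library and 109 with the replicate block, under which 9 were lower and 28.7% and 29.6% of all genes were higher and lower; 1 was lower without shRNA1 replicate 1 or shRNA2 replicate 2. The MM1.S cluster count was 5 without shRNA2 replicate 1 and 11 without shRNA1 replicate 2, and the H929 count over all members was 25 without shRNA2 replicate 2.

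The scramble groups of H929 also differed from each other, which touches every H929 difference between hairpins. In the scramble for shRNA2 relative to that for shRNA1, 14 of 230 members were higher and 21 lower, where 16.8% and 13.1% of all genes were higher and lower. In the cluster 10 of 31 were higher and 1, ZNF91, lower (median 0.23); outside it 4 were higher and 20 lower of 199. Of the 10 cluster members lower with shRNA2 than with its own scramble, both shRNA2 libraries also lay below both libraries of the other scramble for 6, and overlapped them for 4. Of the 41 members higher with shRNA2, both shRNA2 libraries lay above the other scramble for 29, below it for 3 and overlapped it for 9. These positions were not counted over all genes, so they have no share to be read against. Leaving out single scramble libraries left 3 to 9 members higher, and leaving out either shRNA2 library left 9. There were 6 lower without replicate 2 of the scramble for shRNA1 and 9 without either library of the scramble for shRNA2. What sets these scramble groups apart, other than the label, was not tested.

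Within H929, the calls of the hairpins were set side by side. Both hairpins called 11 of 230 members higher (4.78%, where 6.97% of all genes were), which is 30.6% of those higher with shRNA1 and 26.8% of those higher with shRNA2. Both called 10 lower (4.35%, where 11.6% of all genes were), which is 10 of 50 and 47.6% of 21. In opposite directions, 2 were higher with shRNA1 and lower with shRNA2, whereas 5 were lower under shRNA1 yet higher under shRNA2. Pearson's r between the hairpin effects was 0.41 across 230 members and 0.28 across all 18213 genes, which share their libraries and are not independent.

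The calls of the same hairpin were set side by side across lines, which share no libraries. Of the 195 members tested in both lines, 22 were lower with shRNA1 in both, 61.1% of those lower in MM1.S and 55.0% of those lower in H929; 6 were higher in both. Over all 15761 genes tested in both lines, 14% were lower in both with shRNA1 and 10.2% higher, so that the 11.3% and 3.08% of the members were below them. With shRNA2, 20 were higher in both, 37.0% of those higher in MM1.S and 57.1% of those in H929, and 7 were lower in both. These are 10.3% and 3.59% of the members, where 9.09% and 15.3% of all genes were higher and lower in both. Pearson's r across these members was 0.64 for shRNA1 and 0.65 for shRNA2, and over all genes 0.53 and 0.63. Between different hairpins it was 0.50 (shRNA1 in MM1.S, shRNA2 in H929) and 0.33 (shRNA2 in MM1.S, shRNA1 in H929) across the members, and 0.36 and 0.16 over all genes.

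**Figure D4:**
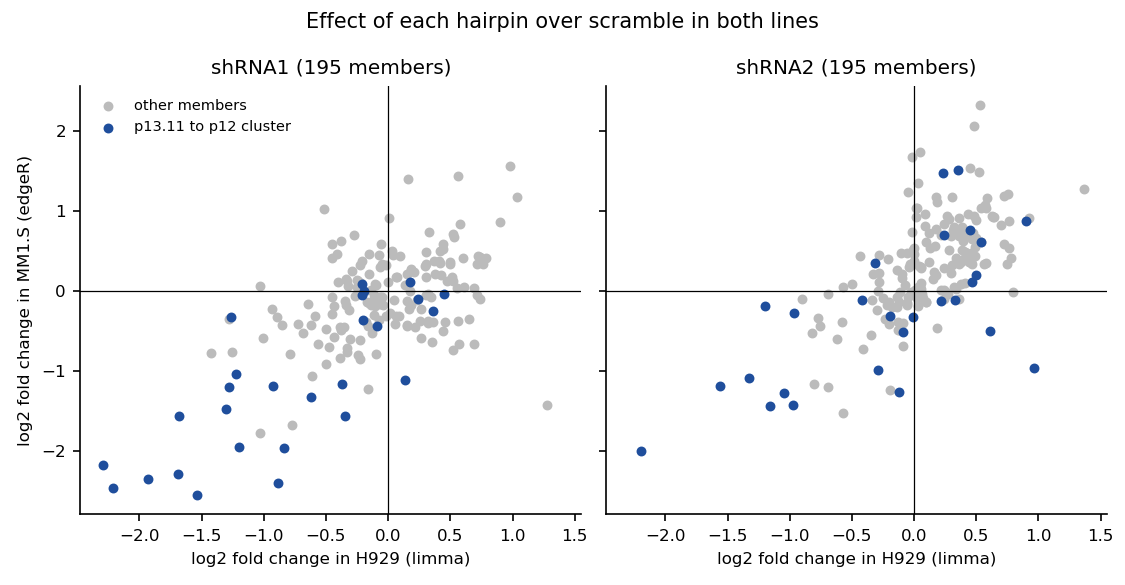
Log2 fold change of each of 195 members over scramble in MM1.S (y axis, edgeR) against that in H929 (x axis, limma), for shRNA1 (left) and shRNA2 (right), with members of the 19p12 cluster in blue. Most blue points lie in the lower left of the shRNA1 panel and spread over both signs in the shRNA2 panel; Pearson's r over all points was 0.64 and 0.65.

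Of the 195, 6 were lower in all 4 hairpin comparisons, 2 were higher in all 4, and 60 were called in none. Of all 15761 genes tested in both lines, 6.27% were lower in all 4, 2.32% higher in all 4 and 18.3% called in none; the MM1.S comparisons share their scramble libraries. The 6 lower ones were ZNF66, ZNF85, ZNF93, ZNF257, ZNF486 and ZNF724, all in band p12. Of these, ZNF724 had to be lower in H929, where it reached the limit only in scramble libraries. ZNF93 was listed for its known role, and ZNF85 was picked by the size of its own changes in H929. The rest were named after their values were seen. ZNF85 (ENSG00000105750, chr19:20923222-20950697, plus strand) had 1.10 and 1.10 CPM in MM1.S shRNA1 libraries, 2.32 and 2.33 with shRNA2 and 6.37 and 4.95 with scramble. H929 libraries had 19.8 and 35.9 normalized reads with shRNA1 against 114 and 96.6 with its scramble, and 81.6 and 112 with shRNA2 against 218 and 179.8 with its scramble. Each pair of knockdown libraries lay below its scramble pair, but the H929 shRNA2 libraries overlapped the scramble for shRNA1. The changes were -2.35 ± 0.24 and -1.28 ± 0.22 in MM1.S (edgeR adjusted p = 0.00028 and 0.0033, shRNA1 and shRNA2). In H929 they were -1.93 ± 0.25 and -1.05 ± 0.25 (limma adjusted p = 7.8e-06 and 0.0033). The H929 shRNA2 call was lost without shRNA2 replicate 1 (-0.82 and adjusted p = 0.059, limma) and without replicate 1 of its scramble (-0.91 and adjusted p = 0.053, limma).

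ZNF724 (ENSG00000196081, chr19:23221599-23250390, minus strand) was scarcer, and its shRNA2 and shRNA1 libraries in MM1.S did not differ by the test (0.17 ± 0.31, edgeR adjusted p = 0.75). It had 0.592 and 0.575 CPM with shRNA1, 0.716 and 0.603 with shRNA2 and 2.74 and 2.57 with scramble in MM1.S, changes of -2.17 ± 0.28 and -2.001 ± 0.27 (edgeR adjusted p = 0.00081 and 0.0012). Its H929 levels were 3.31 and 0.921 normalized reads with shRNA1 against 12.7 and 13.5, a change of -2.29 ± 0.47 (limma adjusted p = 0.00062). With shRNA2 it had 7.57 and 5.76 against 29.9 and 38.3, a change of -2.19 ± 0.47 (limma adjusted p = 0.0014). No library left out ended any of these 4 calls, and with 12 to 17 reads in the MM1.S knockdown libraries the folds are imprecise. It shares 60.5% of its 31-base words with other genes, so its reads may be split with a near copy. ZNF257 (ENSG00000197134, chr19:22052452-22091480, plus strand) was lower with shRNA1, at -2.47 ± 0.36 in MM1.S (edgeR adjusted p = 0.0015) and -2.21 ± 0.33 in H929 (limma adjusted p = 3.3e-05). With shRNA2 the values were -1.19 ± 0.32 (edgeR adjusted p = 0.023) and -1.56 ± 0.33 (limma adjusted p = 0.0013), of which the MM1.S call was lost without shRNA2 replicate 1 (-1.18 and adjusted p = 0.11, edgeR) and without shRNA2 replicate 2 (-1.19 and adjusted p = 0.1, edgeR). ZNF66 was lower, at -1.20 and -1.44 in MM1.S and -1.28 and -1.16 in H929, and each of its 4 calls was lost without at least 1 library. ZNF486 was lower, at -2.55 and -1.42 in MM1.S and -1.54 and -0.98 in H929; its MM1.S shRNA2 call was lost without either shRNA2 library (-1.45 and adjusted p = 0.056 without replicate 1, -1.39 and adjusted p = 0.06 without replicate 2, edgeR), and its H929 shRNA2 call without shRNA2 replicate 1 or replicate 1 of its scramble.

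ZNF93 and ZNF91, which silence young LINE-1 and SVA retrotransposons in human pluripotent cells, both lie in the cluster; ZNF93 was lower in all 4 comparisons and ZNF91 higher in the shRNA2 ones. ZNF93 (ENSG00000184635, chr19:19900913-19963464, plus strand) had 3.31 and 2.64 CPM with shRNA1, 5.64 and 5.30 with shRNA2 and 14.1 and 9.17 with scramble in MM1.S. Its changes were -1.96 ± 0.25 and -1.09 ± 0.24 (edgeR adjusted p = 0.00084 and 0.01). The H929 values were 23.2 and 18.4 normalized reads with shRNA1 against 36.00 and 39.6, a change of -0.84 ± 0.27 (limma adjusted p = 0.014). With shRNA2 it had 30.3 and 46.1 against 91.7 and 98.9, a change of -1.33 ± 0.27 (limma adjusted p = 0.00079). The H929 shRNA2 libraries overlapped the scramble for shRNA1, and the scramble for shRNA2 stood above that for shRNA1 by 1.31 ± 0.27 (limma adjusted p = 0.0015). The MM1.S shRNA2 call was lost without either shRNA2 library (-1.13 and adjusted p = 0.052 without replicate 1, -1.04 and adjusted p = 0.063 without replicate 2, edgeR). The H929 shRNA1 call was lost without shRNA1 replicate 2 (-0.68 and adjusted p = 0.075, limma) and without replicate 2 of its scramble (-0.77 and adjusted p = 0.066, limma).

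ZNF91 (ENSG00000167232, chr19:23304991-23395560, minus strand) had 13.6 and 10.8 CPM with shRNA1, 23.97 and 17.7 with shRNA2 and 12.9 and 9.75 with scramble in MM1.S. The change was 0.11 ± 0.22 with shRNA1 (edgeR adjusted p = 0.73) and 0.88 ± 0.22 with shRNA2 (edgeR adjusted p = 0.017). In H929 there were 428 and 424 normalized reads with shRNA1 against 393 and 360.2, and 559 and 553 with shRNA2 against 320.3 and 277. There shRNA1 gave 0.18 ± 0.11 and shRNA2 0.90 ± 0.11 (limma adjusted p = 0.2 for shRNA1, 1.1e-05 for shRNA2). Both H929 shRNA2 libraries stood above all 4 scramble libraries. The shRNA2 effect exceeded the shRNA1 effect in H929 by 0.72 ± 0.16 (limma adjusted p = 0.0018). The MM1.S call was lost without shRNA2 replicate 1 (0.65 and adjusted p = 0.12, edgeR) and without scramble replicate 2 (0.69 and adjusted p = 0.063, edgeR).

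The 2 members higher in all 4 comparisons were ZNF580, a short protein with 3 fingers, and ZNF627. ZNF580 (ENSG00000213015, chr19:55635016-55643469, plus strand) had 30.4 and 46.5 CPM with shRNA1, 36.2 and 52.2 with shRNA2 and 18.1 and 24.9 with scramble in MM1.S, changes of 0.83 ± 0.26 and 1.04 ± 0.26 (edgeR adjusted p = 0.039 and 0.018). Levels in H929 were 913 and 718 normalized reads with shRNA1 against 544 and 538, and 526 and 505 with shRNA2 against 342 and 369. These were changes of 0.58 ± 0.12 and 0.54 ± 0.12 (limma adjusted p = 0.00056 and 0.0016). Its exons overlap 2 other genes on the same strand, so some of these reads may belong to them. The shRNA2 libraries of H929 lay below the scramble for shRNA1. Both MM1.S calls were lost without scramble replicate 1 (0.62 and adjusted p = 0.14 with shRNA1, 0.83 and adjusted p = 0.06 with shRNA2, edgeR). They were also lost without replicate 2 of the hairpin itself (0.54 and adjusted p = 0.15 with shRNA1, 0.76 and adjusted p = 0.11 with shRNA2, edgeR). ZNF627 was higher by 0.74 and 0.73 in MM1.S and by 0.33 and 0.47 in H929; its MM1.S shRNA1 call was lost without shRNA1 replicate 1 (0.54 and adjusted p = 0.13, edgeR) or scramble replicate 2 (0.60 and adjusted p = 0.084, edgeR). Its MM1.S shRNA2 call was lost without either shRNA2 library or scramble replicate 2, its H929 shRNA2 call without shRNA2 replicate 2 (0.45 and adjusted p = 0.064, limma), and its H929 shRNA1 call without any single library of H929 tried except shRNA1 replicate 2 and those of the scramble for shRNA2.

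**Figure D5:**
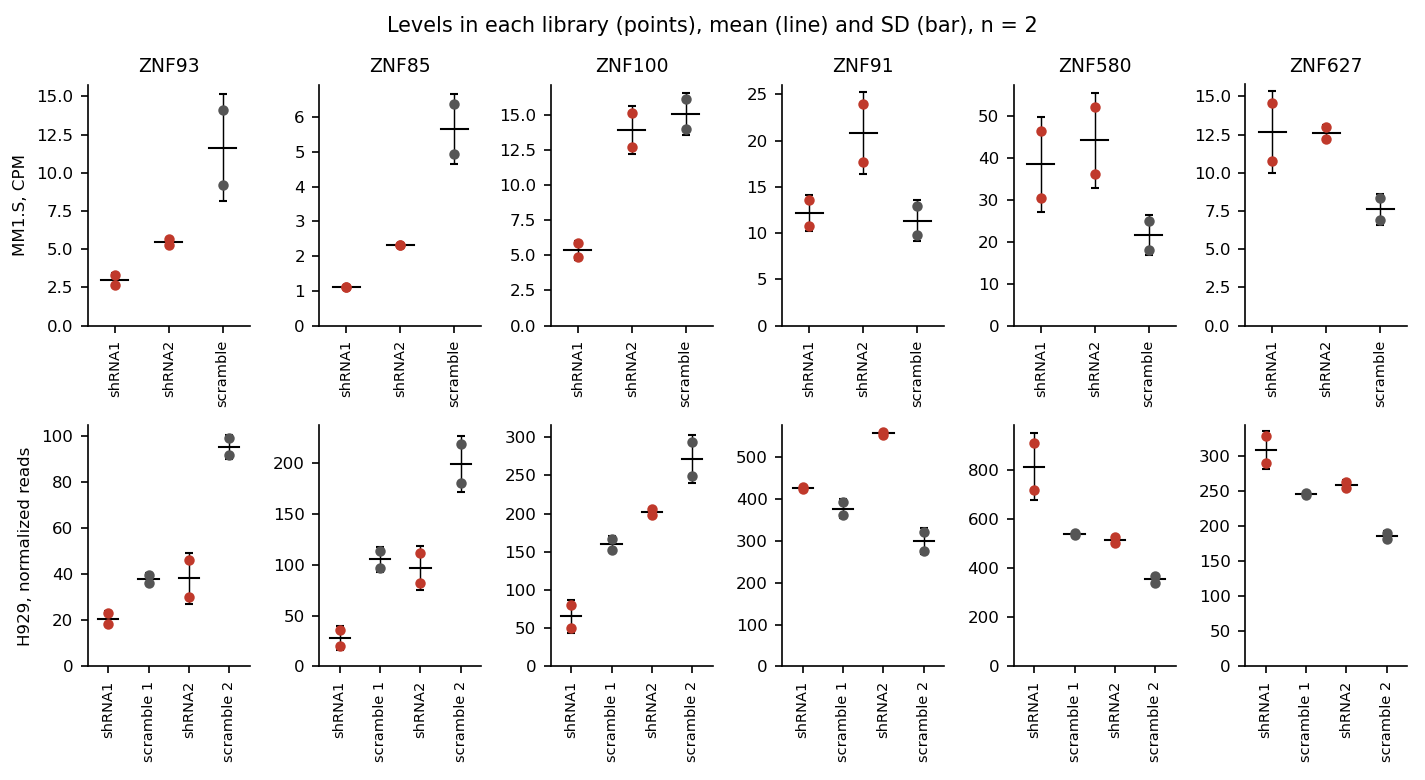
Level in each library (points) with the mean (line) and SD (bar, n = 2) of 6 members, in CPM in MM1.S (top row) and normalized reads in H929 (bottom row); knockdown in red, scramble in grey. ZNF85 falls to 1.10 and 1.10 CPM with shRNA1 in MM1.S, ZNF91 stands highest with shRNA2 in both lines, and ZNF93 and ZNF85 stand higher in the H929 scramble for shRNA2 than in that for shRNA1.

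Among members with known roles outside the cluster, ZNF274, which binds the zinc finger exons of other ZNF genes and marks them with repressive chromatin through SETDB1, rose with shRNA2 in MM1.S. It (ENSG00000171606, chr19:58183029-58213562, plus strand) had 19.8 and 19.8 CPM with shRNA1, 37.7 and 36.1 with shRNA2 and 17.1 and 17.1 with scramble, and both shRNA2 libraries stood above the rest. The change with shRNA2 was 1.11 ± 0.13 (edgeR adjusted p = 0.00052), and with shRNA1 0.21 ± 0.13 (edgeR adjusted p = 0.22). In H929 it was higher with shRNA1, by 0.38 ± 0.11 (limma adjusted p = 0.0063), and the shRNA2 value was 0.18 ± 0.11 (limma adjusted p = 0.17). ZNF473, which works in the processing of histone pre-mRNA, was not called in any of the 4 comparisons (-0.004 and 0.21 in MM1.S, 0.18 and -0.33 in H929). ZNF350, a repressor that binds BRCA1, had -0.01 and 0.61 in MM1.S, of which the second passed (edgeR adjusted p = 0.025) but not without scramble replicate 2 or either shRNA2 library (adjusted p = 0.10, 0.14 and 0.080). In H929 its values were -0.19 and 0.54.

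ZNF331 was scarce in MM1.S, with 0.0789 and 0.335 CPM with shRNA1, 0.927 and 1.37 with shRNA2 and 0.313 and 0.367 with scramble; with shRNA2 edgeR called it higher but not without any 1 of those 4 shRNA2 and scramble libraries. Counted in H929, it had 7.44 and 17.5 normalized reads with shRNA1 against 32.1 and 32.8, a change of -1.42 ± 0.35 (limma adjusted p = 0.0025), and 38.7 and 37.5 with shRNA2 against 41.2 and 32.97. ZNF382 was at 0 reads in 5 of 6 MM1.S libraries and was not tested there. In H929 its shRNA2 value was 1.27 ± 0.39 (limma adjusted p = 0.016), lost without shRNA2 replicate 1 (1.09 and adjusted p = 0.12, limma) and without replicate 2 of its scramble (0.84 and adjusted p = 0.16, limma). ZNF420, a regulator of p53, was lower with shRNA2 in H929, at -0.82 ± 0.18 (limma adjusted p = 0.0017), and its MM1.S value was -0.53 ± 0.20 (edgeR adjusted p = 0.07).

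ZNF530, outside the cluster at q13.43, ranked first among MM1.S members averaging at least 5 CPM that were lower with both hairpins, by the smaller of its changes. It had 3.16 and 3.69 CPM with shRNA1, 5.31 and 4.86 with shRNA2 and 11.5 and 11.95 with scramble, changes of -1.78 ± 0.18 and -1.21 ± 0.17 (edgeR adjusted p = 0.00027 and 0.0014). In H929 the same hairpins gave -1.03 ± 0.27 (limma adjusted p = 0.0046, lost without shRNA1 replicate 1 at -0.73 and adjusted p = 0.054) and -0.69 ± 0.27 (limma adjusted p = 0.052). In H929, ZNF440 and ZNF780B were higher with both hairpins. ZNF440 had 375 and 355 normalized reads with shRNA1 against 235 and 203, and 329.7 and 330.00 with shRNA2 against 226 and 199.97. Its changes were 0.74 ± 0.13 and 0.63 ± 0.13 (limma adjusted p = 0.00013 and 0.00083). ZNF780B rose by 0.72 ± 0.10 and 0.47 ± 0.10 (limma adjusted p = 1.7e-05 and 0.0014).

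ZNF780A, the neighbour of ZNF780B, took opposite directions with the hairpins in H929. It had 192 and 171 normalized reads with shRNA1 against 130.4 and 119.8, and 103 and 105 with shRNA2 against 162 and 161. The changes were 0.53 ± 0.15 with shRNA1 and -0.62 ± 0.15 with shRNA2, and the difference, shRNA2 minus shRNA1, was -1.16 ± 0.21 (limma adjusted p = 0.00042). The shRNA1 call was lost without shRNA1 replicate 1 (0.45 and adjusted p = 0.051, limma) and, at an adjusted p of 0.050, without replicate 2 of its scramble. In MM1.S, shRNA2 libraries stood below shRNA1 libraries, at -1.27 ± 0.21 (edgeR adjusted p = 0.0026). ZNF528 went the other way, with 69.5 and 101 normalized reads with shRNA1 against 145 and 111 and 156 and 202 with shRNA2 against 93.7 and 92.5, and a difference of 1.51 ± 0.29 (limma adjusted p = 0.00062). In MM1.S its shRNA2 libraries stood above its shRNA1 libraries by 1.23 ± 0.26 (edgeR adjusted p = 0.0075).

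ZNF225 and its neighbour ZNF224, a KRAB repressor of the aldolase A gene, were higher with shRNA1 in MM1.S and lower with it in H929. ZNF225 had 6.71 and 6.33 CPM with shRNA1, 5.48 and 5.14 with shRNA2 and 3.64 and 2.75 with scramble in MM1.S. There shRNA2 also called it higher, by 0.73. The shRNA1 change was 1.03 ± 0.21 (edgeR adjusted p = 0.0061). The H929 change of -0.52 ± 0.19 (limma adjusted p = 0.031) was lost without shRNA1 replicate 1 (-0.39 and adjusted p = 0.17) or either library of its scramble (-0.49 and adjusted p = 0.12 without replicate 1, -0.55 and adjusted p = 0.076 without replicate 2, limma). The 2 H929 scrambles also differed in ZNF225, by -0.63 (scramble 2 over scramble 1, limma adjusted p = 0.022). ZNF224 changed by 0.59 in MM1.S, a call lost without shRNA1 replicate 1 (0.60 and adjusted p = 0.071) or scramble replicate 2 (0.48 and adjusted p = 0.083, edgeR). Its H929 change of -0.45 was likewise lost without shRNA1 replicate 1 (-0.16 and adjusted p = 0.39) or either scramble library (-0.42 and adjusted p = 0.1 and -0.49 and adjusted p = 0.059, limma). ZNF671 at q13.43 was higher with shRNA2 in both lines, at 1.16 ± 0.17 in MM1.S (edgeR adjusted p = 0.0015) and 0.58 ± 0.15 in H929 (limma adjusted p = 0.0042), and no library left out ended either call. In H929, shRNA1 also called it higher, at 0.37. ZNF555 was higher with both hairpins in MM1.S, at 0.87 with shRNA1 and 1.18 ± 0.23 with shRNA2 (edgeR adjusted p = 0.0063 for shRNA2). It was also higher with shRNA1 in H929, at 0.90 ± 0.18 (limma adjusted p = 0.00052). ZNF57 had 0 reads in all 6 MM1.S libraries. In H929 it had 131 and 139.9 normalized reads with shRNA1 against 78.8 and 88.9 with its scramble, a change of 0.69 ± 0.18 (limma adjusted p = 0.0036).

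The effect of each hairpin was compared between the lines, as the MM1.S effect minus the H929 effect. For shRNA1 it was positive for 4 of 235 members and negative for 17, where 10.4% and 11% of all genes were; for shRNA2 it was positive for 6 and negative for 4, where 4.34% and 5.41% were. The 235 include 5 members that passed only in MM1.S and 33 that passed only in H929, for which the other line held few reads. Of the 33 cluster members, 29 were tested within MM1.S and 31 within H929. Among these 33, 0 were positive and 4 negative for shRNA1, and 0 positive and 3 negative for shRNA2. Single libraries moved these counts: for shRNA1 there were 2 positive and 10 negative without replicate 1 of the H929 scramble for shRNA1, 9 negative without MM1.S scramble replicate 1 and 8 negative without MM1.S shRNA1 replicate 2, and 11 positive and 27 negative with the replicate block, where 15% and 16.4% of all genes were. For shRNA2 there were 2 positive without either H929 shRNA2 library, without replicate 1 of their scramble or without MM1.S shRNA2 replicate 1, and 3 without replicate 2 of that scramble. There were 1 or 2 negative without any one of the shRNA2 libraries or of the scramble libraries for shRNA2 in either line, and 17 positive with the replicate block, where 9.46% of all genes were.

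Features of the members were set beside these calls. With shRNA1 in MM1.S, 34 of 167 members with a KRAB pattern (20.4%) and 3 of 32 without it (9.38%) were lower. The first share was near the 19.7% of all genes and the second below it. In H929, 41 of 192 (21.4%) and 9 of 37 (24.3%) were lower, both below the 27.7% of all genes. With shRNA2, 28.7% and 18.8% were higher in MM1.S, where 14.9% of all genes were. In H929 the shares higher were 18.2% and 16.2%, where 18.0% of all genes were. Leaving out the cluster, 11.5% of KRAB members were lower with shRNA1 in MM1.S and 14.7% in H929, both below the shares of all genes. ZNF genes of the same naming pattern on other chromosomes (267 listed) had 31 lower and 36 higher of 228 with shRNA1 in MM1.S, and 25 lower and 53 higher with shRNA2. In H929 they had 40 lower and 62 higher of 234 with shRNA1, and 34 lower and 52 higher with shRNA2. Calls of ZNF genes elsewhere in the genome were thus more often higher than lower in all 4 comparisons. The shares higher in MM1.S were 15.8% with shRNA1 and 23.2% with shRNA2, where 17.8% and 14.9% of all genes were. In H929, shRNA1 called 26.5% higher, near the 25.7% of all genes. With shRNA2 there, 22.2% were higher, above the share of all genes. The shares lower were below those of all genes in all 4 comparisons.

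The partners of KRAB proteins were counted as a list. Of 30 genes of the KRAB repression machinery, 14 were lower and 1, ATF7IP2, a relative of a SETDB1 partner, was higher with shRNA1 in MM1.S, and 11 were lower and 3 (SETDB1, ATF7IP2, MORC2) higher with shRNA2 (median -0.30 and -0.24). That is 46.7% and 36.7% lower, where 19.7% and 21.7% of all genes were. In H929, 12 were lower and 3 (ATF7IP2, CHD3, PIAS1) higher with shRNA1, and 17 lower and 2 (ATF7IP2, MPHOSPH8) higher with shRNA2 (median -0.09 and -0.30). That is 12 of 30 and 56.7% lower, where 27.7% and 25% of all genes were. In the H929 scramble for shRNA2, 14 of them were higher and 3 lower than in the scramble for shRNA1, where 16.8% and 13.1% of all genes were. TRIM28, the corepressor that KRAB boxes bind, had 175 and 227 CPM with shRNA1, 258 and 338 with shRNA2 and 418 and 505 with scramble in MM1.S. Its changes were -1.20 ± 0.19 and -0.63 ± 0.19 (edgeR adjusted p = 0.0021 and 0.03). For H929 the values were 1884 and 1834 normalized reads with shRNA1 against 3680.1 and 3550.2, and 2768 and 2718 with shRNA2 against 4268 and 5099. Its changes were -0.96 ± 0.09 and -0.77 ± 0.09 (limma adjusted p = 2.2e-07 and 5.8e-06). The MM1.S shRNA2 call was lost without shRNA2 replicate 1 (-0.45 and adjusted p = 0.2, edgeR) and without scramble replicate 2 (-0.49 and adjusted p = 0.1, edgeR).

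Within the same list, UHRF1, which recruits DNA methyltransferase to newly copied DNA, was lower, at -3.14 ± 0.28 and -2.69 ± 0.27 in MM1.S (edgeR adjusted p = 0.00016 and 0.00029) and -4.29 ± 0.26 and -2.79 ± 0.26 in H929 (limma adjusted p = 1.5e-09 and 4.4e-07). SUV39H1, a methyltransferase of histone H3 lysine 9, was lower, at -2.44 ± 0.24 and -2.04 ± 0.24 in MM1.S and -1.92 ± 0.17 and -1.67 ± 0.17 in H929 (edgeR and limma adjusted p = 0.00027, 0.00058, 1.2e-07 and 1.3e-06). SETDB1 had 0.05 ± 0.11 with shRNA1 in MM1.S (edgeR adjusted p = 0.76) and was higher with shRNA2 by 0.40 ± 0.11 (edgeR adjusted p = 0.029). In H929 SETDB1 was lower with shRNA1, at -0.21 ± 0.08 (limma adjusted p = 0.041). Its shRNA2 value there was 0.10 ± 0.08 (limma adjusted p = 0.34). In the scramble for shRNA2, TRIM28 stood above the scramble for shRNA1 by 0.37 ± 0.09, SUV39H1 by 1.04 ± 0.17 and UHRF1 by 2.23 ± 0.26. TRIM28, UHRF1, SUV39H1, SETDB1 and ATF7IP2 were named after their values were seen. Of 36 genes of mRNA deadenylation and decay, shRNA1 called 6 higher and 7 lower in MM1.S, while shRNA2 called 6 higher and 5 (CNOT9, TOB1, BTG2, PATL1, ZFP36) lower. The shRNA1 shares, 16.7% and 19.4%, are near the 17.8% and 19.7% of all genes. The shRNA2 shares were 16.7% and 13.9%, where 14.9% and 21.7% of all genes were. H929 gave 14 higher and 7 lower for shRNA1, against 4 (CNOT6, CNOT6L, PAN2, EDC3) higher and 12 lower for shRNA2. These are 38.9% and 19.4%, and 11.1% and 33.3%, where 25.7% and 27.7%, and 18.0% and 25%, of all genes were. Genes of both lists named with these counts were named after their values were seen.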

How the data were processed

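Per the file headers, the authors deposited raw read counts per Ensembl gene for MM1.S. The deposited H929 table carries the same name but holds a normalized signal, in which the counts of each library were divided by 1 size factor; every value multiplied back was whole within 0.01. Per the submitters' processing notes, STAR 2.5.3a and DESeq2 1.24.0 were used on GRCh38; the counter is not given in the sources used here. Each table lists 58069 rows, of which 18 repeated identifiers were left out.

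For MM1.S, the quasi-likelihood test of edgeR 4.0.16 was run on the counts (R 4.3.3, TMM, filterByExpr, minimum 10), with 200 members among 17820 genes. H929 values were tested with limma 3.58.1 (trend) on log2(value + 1), with 230 members among 18213 genes at 10 or more in 2 libraries. Line differences used limma over all 14 libraries and 20370 genes, on the same log2 scale, which understates changes of low genes. Benjamini-Hochberg adjustment ran over all genes tested, with a threshold of 0.05. Scripts were tested on simulated data.

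The members and lists were chosen with earlier results of these data known. Named genes were ZNF genes with known roles, the furthest moved with both hairpins, in all comparisons, between hairpins and between lines (mean of at least 5 CPM), and the highest per kb. Same-numbered libraries of MM1.S moved together around their group means (correlations 0.567 to 0.807 over 10821 genes), and no label says what the number stands for; H929 libraries did not (-0.175 to 0.215). Replicates of a group spread 2.36 to 30.3 times as much as counting (chi-square per degree of freedom). KRAB boxes and fingers were found in translated GENCODE 29 coding sequences, not in RefSeq proteins as planned. The columns of shRNA2 and of 1 library of the scramble for shRNA1 in H929 were assigned by elimination. Alternatives were other scaling, DESeq2 1.42.0, no filter, other pseudocounts (0.5, 8), only the compared groups, the replicate block, and each library left out; edgeR on the recovered H929 reads was added after seeing the data.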

Additional observations from a re-analysis of the deposited data

Results flagged for a closer look

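The effect of a hairpin differed between MM1.S and H929 (limma interaction, adjusted p under 0.05, MM1.S effect minus H929 effect on the log2 scale) for several named members. For shRNA1 the difference was -2.70 ± 0.28 for ZNF788, -1.19 ± 0.27 for ZNF681, -0.997 ± 0.16 for ZNF121, -0.996 ± 0.19 for ZNF544 and -0.78 ± 0.19 for ZNF675. It was 1.55 ± 0.28 for ZNF225 and 1.05 ± 0.25 for ZNF224, neighbours at q13.31. For shRNA2 the difference was -1.12 ± 0.27 for ZNF681, -1.08 ± 0.19 for ZNF101 and -1.01 ± 0.28 for ZNF788, and 0.94 ± 0.14 for ZNF274 and 0.74 ± 0.20 for ZNF134.

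ZNF788, the transcribed pseudogene, went in opposite directions with shRNA1. It had 1.97 and 2.25 CPM with shRNA1 against 5.59 and 5.79 with scramble in MM1.S, and 161 and 150.1 normalized reads with shRNA1 against 56.4 and 71.5 with its scramble in H929. Its exons overlap 2 genes on the opposite strand, and no label says that the libraries keep the strand. Some of these reads may therefore belong to those genes. ZNF225 had 6.71 and 6.33 CPM with shRNA1 against 3.64 and 2.75 with scramble in MM1.S, and 68.6 and 82.9 normalized reads with shRNA1 against 111 and 106 with its scramble in H929. ZNF121 had 71.7 and 63.2 CPM with shRNA1 against 94.98 and 77.2 in MM1.S, and 4151 and 4587 normalized reads against 2796 and 2776 in H929. The shRNA2 differences of ZNF788 and ZNF134 lost their call without single libraries (ZNF788 -1.07 to -0.80 and ZNF134 0.66 to 0.82 where lost), and that of ZNF681 did so in 6 cases (-1.13 to -0.87).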

How the results depend on the processing

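Of the results other than counts of members, none reversed. Counts of members were judged only by whether they stayed within 1.5 times, so they could not reverse. The median shRNA1 log2 fold change of the members tested did change sign. In MM1.S it was -0.11, and 0.018 without scramble replicate 1. In H929 it was -0.09, and 0.037 without shRNA1 replicate 1. Of 131 counts of members under alternatives other than leaving out a library, 117 stayed within 1.5 times. The others were as follows. With the replicate block in MM1.S there were 34 members higher and 64 lower with shRNA1, 87 and 34 with shRNA2, and 109 and 9 for shRNA2 over shRNA1; the line differences had 11 positive and 27 negative for shRNA1 and 17 positive for shRNA2. With DESeq2, 6 cluster members were lower with shRNA2 in MM1.S. Without a filter, the H929 scrambles differed in 6 members higher and 11 lower. With TMM scaling, 11 members were negative for the shRNA1 line difference, and with a pseudocount of 8, 7 were negative for shRNA2. The cause of these shifts was not tested. Reads recovered from the H929 values (100% of values whole within 0.01), an alternative chosen after seeing the data, gave 9935 edgeR calls over all genes for shRNA1 and 8022 for shRNA2. Among members shRNA1 had 40 calls up and 48 down, and shRNA2 had 48 up and 21 down.

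With single libraries left out, counts (higher, lower) ranged over 4 to 11 and 18 to 33 for shRNA1 in MM1.S, 18 to 58 and 9 to 22 for shRNA2, and 21 to 73 and 1 to 4 for shRNA2 over shRNA1. In H929 they ranged over 24 to 36 and 35 to 58 for shRNA1, 19 to 48 and 11 to 27 for shRNA2, 25 to 54 and 12 to 20 between hairpins, and 3 to 18 and 6 to 27 between scrambles. Line differences ranged over 2 to 6 and 8 to 19 for shRNA1 and 2 to 9 and 1 to 6 for shRNA2. For the 19p12 cluster, 14 to 18 were lower with shRNA1 in MM1.S, 5 to 11 with shRNA2, and 5 to 20 higher for shRNA2 over shRNA1. In H929, 15 to 19 were lower with shRNA1, 4 to 11 with shRNA2, and 7 to 14 higher between hairpins. The replicate block of H929 moved no count by over 1.5 times. Of the 235 members, 52 averaged under 1 CPM in MM1.S.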
